A study of Mus musculus with 14 samples.

Results

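Laminins, nidogens and the heparan sulfate proteoglycans perlecan and agrin are the non-collagen building blocks of basement membranes. Transcripts of 10 genes of this kind, picked by name out of the 42687 genes counted, were followed in 14 RNAseq libraries of mouse retinal pigment epithelium (RPE): the laminin α chains Lama2, Lama4 and Lama5, the β chains Lamb1 and Lamb2, the γ chain Lamc1, the nidogens Nid1 and Nid2, perlecan (Hspg2) and agrin (Agrn). All 10 had enough reads to be tested in every comparison, and the lowest count of any of them in any library was 12. Each library came from the RPE cells of both eyes of a male C57BL/6J mouse aged 3 months. The KO mice (Best1-Cre+/-; Clic4f/f) carry the Best1-Cre transgene, which drives Cre from an RPE promoter, and floxed alleles of Clic4, a chloride intracellular channel gene. They were compared in 3 sets that share no library: 3 KO with 3 WT mice, which carry neither allele, 2 KO with 2 Ctrl mice (Clic4f/f, floxed alleles without Cre) and 2 KO with 2 CreCtrl mice (Best1-Cre+/-, Cre without floxed alleles). The sets are called the WT, Ctrl and CreCtrl set. Control genotype and set go together, so their effects cannot be told apart.

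A laminin is a cross-shaped trimer of an α, a β and a γ chain that polymerizes into a sheet on the cell surface, and the chain makeup differs between tissues. Laminins with α5 are typical of epithelial and mature vascular basement membranes, α4 is typical of endothelium, and α2 is the chain of muscle and Schwann cells, also made by mesenchymal cells. Nidogens and perlecan link the laminin sheet to the network of type IV collagen, and agrin binds both laminin and dystroglycan. In the eye, Bruch's membrane lies between the RPE and the choriocapillaris and holds a basement membrane of each.

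The genes lie apart in the genome, except that pairs of them share chromosomes 4 and 10. In GRCm38, Lama2 spans chr10:26980036-27619758 (minus strand, 66 exon blocks), Lama4 chr10:38965515-39110188 (plus strand, 38 exon blocks) and Lama5 chr2:180176373-180225859 (minus strand, 79 exon blocks). Lamb1 spans chr12:31265234-31329644 (plus strand, 33 exon blocks), Lamb2 chr9:108479736-108490530 (plus strand, 33 exon blocks) and Lamc1 chr1:153218922-153332786 (minus strand, 28 exon blocks). Nid1 spans chr13:13437551-13512269 (plus strand, 20 exon blocks), Nid2 chr14:19751265-19811787 (plus strand, 22 exon blocks), Hspg2 chr4:137468769-137570630 (plus strand, 97 exon blocks) and Agrn chr4:156165290-156197488 (minus strand, 37 exon blocks). No exon of these genes is shared with a gene on the same strand. On the opposite strand, 437 bp of the Nid2 exons overlap Rtraf, 631 bp of the Lama2 exons overlap Gm48084 and 143 bp of the Nid1 exons overlap Gm48682. The strand setting of the read counting is not given in the sources used here, so reads in these overlaps are uncertain.

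Promoter windows, from 250 bases before to 50 bases after a start site, were found for 7 of the 10 genes in RefSeq (GRCm38.p6). The pair of β chains and the pair of proteoglycans are shown because the members of each pair differed in their KO values. The Lamb1 window is chr12:31265043-31265342 (plus strand), the Lamb2 window chr9:108479612-108479911 (plus strand), the Hspg2 window chr4:137468553-137468852 (plus strand) and the upstream one of 2 Agrn windows chr4:156197439-156197738 (minus strand), each written 5′ to 3′ along the gene. Capitals mark matches on either strand to GGGCGG (the GC box) or TAATCC (the core bound by OTX2).
Lamb1: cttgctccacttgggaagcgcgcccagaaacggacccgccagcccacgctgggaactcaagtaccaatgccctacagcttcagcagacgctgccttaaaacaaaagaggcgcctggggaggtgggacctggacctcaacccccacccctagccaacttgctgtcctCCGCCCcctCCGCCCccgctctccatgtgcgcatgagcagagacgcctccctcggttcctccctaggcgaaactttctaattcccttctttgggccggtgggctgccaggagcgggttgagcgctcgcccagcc
Lamb2: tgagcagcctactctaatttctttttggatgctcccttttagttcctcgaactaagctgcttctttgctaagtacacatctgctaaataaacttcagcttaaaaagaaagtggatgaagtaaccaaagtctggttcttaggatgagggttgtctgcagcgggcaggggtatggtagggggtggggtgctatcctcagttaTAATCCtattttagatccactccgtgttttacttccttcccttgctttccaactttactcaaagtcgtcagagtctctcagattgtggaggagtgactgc
Hspg2: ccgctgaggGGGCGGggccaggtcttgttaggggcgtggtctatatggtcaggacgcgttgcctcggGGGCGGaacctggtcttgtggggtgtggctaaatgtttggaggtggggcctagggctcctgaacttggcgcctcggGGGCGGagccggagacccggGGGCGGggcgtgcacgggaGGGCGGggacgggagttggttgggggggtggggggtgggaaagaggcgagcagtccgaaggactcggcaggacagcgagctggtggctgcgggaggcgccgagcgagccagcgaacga
Agrn: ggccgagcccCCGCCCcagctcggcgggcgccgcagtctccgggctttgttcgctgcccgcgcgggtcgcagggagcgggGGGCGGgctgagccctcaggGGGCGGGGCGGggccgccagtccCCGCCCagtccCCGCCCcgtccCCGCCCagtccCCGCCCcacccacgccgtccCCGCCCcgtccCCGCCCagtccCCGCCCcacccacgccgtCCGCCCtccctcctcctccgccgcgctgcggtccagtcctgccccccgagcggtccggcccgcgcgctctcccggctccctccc
The Lamb1 window held 2 GC boxes and had a GC content of 63.7%, whereas the Lamb2 window held none and had a GC content of 44%. The only capitals in the Lamb2 window are its TAATCC match. The Hspg2 window held 5 GC boxes at a GC content of 70.3%, and the upstream Agrn window 12 at 83.3%. The other Agrn window, chr4:156186210-156186509 (minus strand), is not printed and differed, with 2 GC boxes, 1 TAATCC match and a GC content of 61.3%. Among the 32851 windows of all genes, 35.7% held a GC box, 7.06% held TAATCC, and the median GC content was 52.7%. None of the 4 windows printed held a TATA box (letters TATAAA), which 13.6% of all windows held on either strand. They also lacked the AP-1 motif (letters TGANTCA), held by 7.81% of all windows, and the E-box bound by MITF (letters CACGTG), held by 7.15%. The TEAD motif (letters GGAATG), held by 14.7% of all windows, was not among their letters either. The matches describe the letters only.

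The counts of a library summed to 9828293 to 32384166 (median 16305358). The targeted gene Clic4 was lower in every KO library (9.73 to 33.7 CPM, counts scaled to a common library size) than in every control library (61.5 to 233 CPM). The RPE label was checked against 10 RPE markers such as Rpe65, all of which had at least 1 CPM in every library. Their summed level was 74007 to 86245 CPM in KO and 16958 to 59684 CPM in control libraries, with WT lowest at 16958 to 24574 CPM. The 10 fibroblast markers summed to 83.4 to 662 CPM in KO and 1074 to 8123 CPM in control libraries, and 8 of them had at least 1 CPM in every library. The libraries thus held transcripts of other cell types beside the RPE, to a different extent in KO and control. In such bulk samples, fewer cells of a type and less RNA per cell cannot be told apart. CPM are scaled by TMM factors over all 14 libraries, and fold changes come from a fit within each set.

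In KO vs. WT, most of these basement membrane transcripts were lower in the KO libraries, most of all for Lama4 with a log2 fold change of -4.47, whereas Lamb1 and Nid2 were higher. A gene was called when edgeR's quasi-likelihood test gave a Benjamini-Hochberg adjusted p under 0.05 and the fold change was above 1.5. Of the 10 genes, 9 were called, against 31.7% of the 15428 genes tested, with 7 lower (17.6% of genes tested) and 2 higher (14.1%). Their median log2 fold change was -1.77, against -0.08 over all genes tested. Every KO library lay below every WT library for 7 genes, as for 24.9% of genes tested, and above for 2, as for 28.1%. Scaled by library size alone, all genes called split into 1417 higher and 3585 lower, against 2171 and 2716 with TMM, and of the 10 genes 8 were called, all lower. Lama5 was the gene not called with TMM, and its KO and WT libraries overlapped.

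In KO vs. Ctrl, the same direction was seen in the values for most genes, but edgeR's test called 0 of the 10, as it called 0% of all 15287 genes tested. At an unadjusted p under 0.05 there were 7 of 10, against 12.1% of genes tested, all with lower KO values. DESeq2 called 7 of 10, against 4.87% of the 23965 genes with at least 1 count. That base can include genes of few reads that DESeq2 left without an adjusted p. The fit of all 14 libraries also called 7 (3.66% of genes tested), as did edgeR with every gene of at least 1 count kept (6.92%). Every KO library lay below every Ctrl library for 8 genes (22.6% of genes tested) and above for 1, Nid2 (18.6% of genes tested). The median log2 fold change was -1.68, against 0.01 over all genes tested.

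In KO vs. CreCtrl, 7 of the 10 genes were called, against 15.6% of the 15963 genes tested, and all 7 were lower in KO (12.2% of genes tested), with 0 higher (3.46%). At an unadjusted p under 0.05 there were 9 of 10, against 38.6% of genes tested. Every KO library lay below every CreCtrl library for 8 genes (35.6% of genes tested) and above for 2, Lamb1 and Nid2 (36.2%). The median log2 fold change was -0.77, against -0.02 over all genes tested. With the set as a covariate, the 7 KO and 7 control libraries gave 8 called genes, all lower, against 27.0% of the 16181 genes tested (16.3% lower, 10.8% higher). Scaled by library size alone, all genes called split into 176 higher and 2694 lower in KO vs. CreCtrl, against 552 and 1946 with TMM, and into 681 and 3603 in the 14 libraries, against 1743 and 2632. Across all 14 libraries, every KO library lay below every control library for 6 genes (5.12% of genes tested) and above for 1, Nid2 (3.62%).

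**Figure D1:**
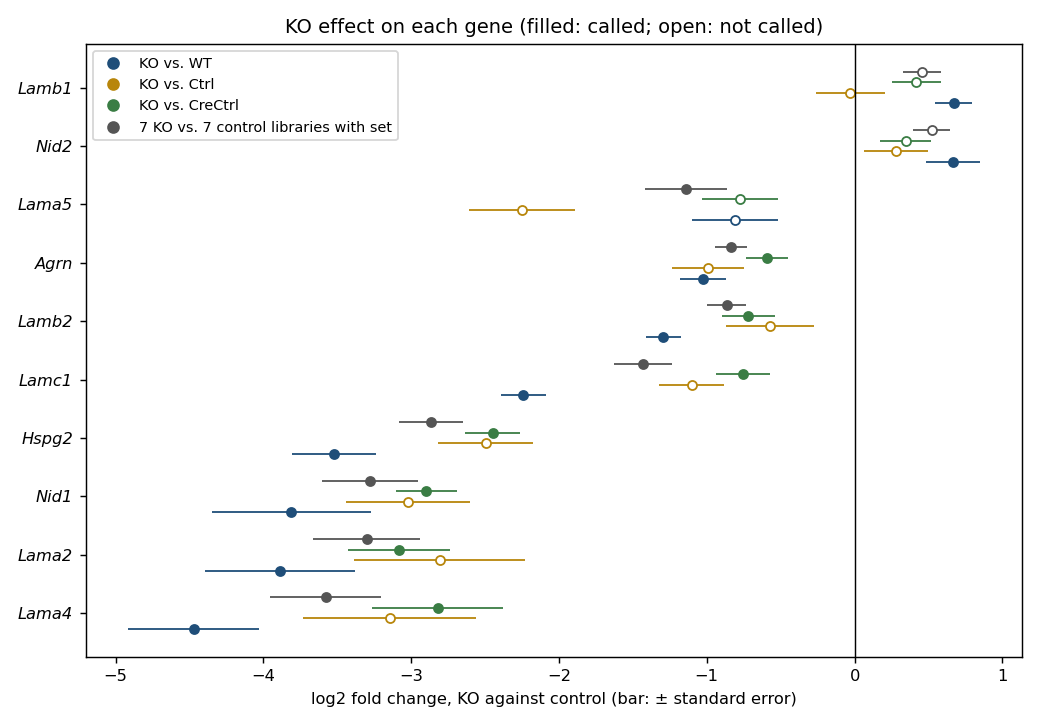
Log2 fold change of KO against control for each gene (x axis) in the 3 sets and in the fit of all 14 libraries with set, with bars of the standard error on each side. Filled points were called and open points were not. Lamb1 and Nid2 stand to the right of the other 8 genes, and Lama4 in KO vs. WT lies lowest, at -4.47.

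The α chains Lama2 and Lama4 were lower in every KO library than in every control library, and Lama5, the epithelial α chain, had log2 fold changes nearer to 0 than theirs in each of the 3 sets. In the Ctrl set the 3 chains were closest, at -2.25 (SE 0.36) for Lama5, -2.81 (SE 0.58) for Lama2 and -3.14 (SE 0.59) for Lama4. The difference between chains was not tested. Lama2 had 149.4, 136 and 146 CPM in the WT libraries and 19.3, 3.43 and 8.84 CPM in the KO libraries of the set. The log2 fold change was -3.89 (SE 0.51, edgeR adjusted p = 5.63e-04). In the Ctrl set, controls had 44.3 and 30.9 CPM and their KO libraries 2.66 and 8.08 CPM, with a log2 fold change of -2.81 (SE 0.58, edgeR adjusted p = 0.125). The groups do not overlap there, but the difference was not called. CreCtrl values were 35.1 and 59.8 CPM and those of their KO libraries 4.33 and 6.89 CPM, and Lama2 fell by 3.08 on the log2 scale (SE 0.34, edgeR adjusted p = 0.00487).

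Lama4, the laminin chain of endothelium and mesenchyme, had 78.0, 111 and 83.0 CPM in WT and 6.95, 4.83 and 1.61 CPM in KO libraries. It fell by 4.47 on the log2 scale (SE 0.44, edgeR adjusted p = 1.52e-04). For Ctrl, the libraries had 12.8 and 9.91 CPM against 0.778 and 1.78 CPM in KO, a log2 fold change of -3.14 (SE 0.59, edgeR adjusted p = 0.116). All KO libraries are low, and the WT libraries are far above the other controls. In the CreCtrl set, 16.4 and 30.1 CPM stood against 2.12 and 4.42 CPM, a log2 fold change of -2.82 (SE 0.44, edgeR adjusted p = 0.0105). The 10 endothelial markers moved with Lama2 and Lama4: 9 were called lower in KO vs. WT and 7 in KO vs. CreCtrl, with 0 in KO vs. Ctrl. Their summed level was 43.8 to 177 CPM in KO and 144 to 602 CPM in control libraries, and 7 of the 10 had at least 1 CPM in every library. The 10 pericyte and smooth muscle markers summed to 331 to 511 CPM in KO and 569 to 2562 CPM in control libraries. They did not move as one: in each set, 2 of the 10 had every KO library above every control library. Of all genes tested, 28.1%, 18.6% and 36.2% did so in the WT, Ctrl and CreCtrl set, so this count is near or below that share. The part of these cells in the differences of Lama2 and Lama4 was not tested.

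Lama5 had 58.3, 45.8 and 35.8 CPM in WT and 37.2, 32.2 and 17.4 CPM in KO libraries. The groups overlap, and the log2 fold change of -0.81 (SE 0.29, edgeR adjusted p = 0.0611) did not pass the test. In the Ctrl set the groups were far apart, with 62.1 and 58.8 CPM in Ctrl and 16.5 and 8.97 CPM in KO libraries (log2 fold change -2.25, SE 0.36, edgeR adjusted p = 0.109). In the CreCtrl set, 55.1 and 32.3 CPM stood against 28.7 and 23.2 CPM (log2 fold change -0.77, SE 0.26, edgeR adjusted p = 0.0763). With edgeR, TMM and the usual count filter, no set alone gave a call for Lama5. The 14 libraries with set did (log2 fold change -1.14, SE 0.28, edgeR adjusted p = 0.00581). KO vs. WT scaled by library size alone also called Lama5 lower. The difference between the KO effects on Lama5 in the sets was not called.

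**Figure D2:**
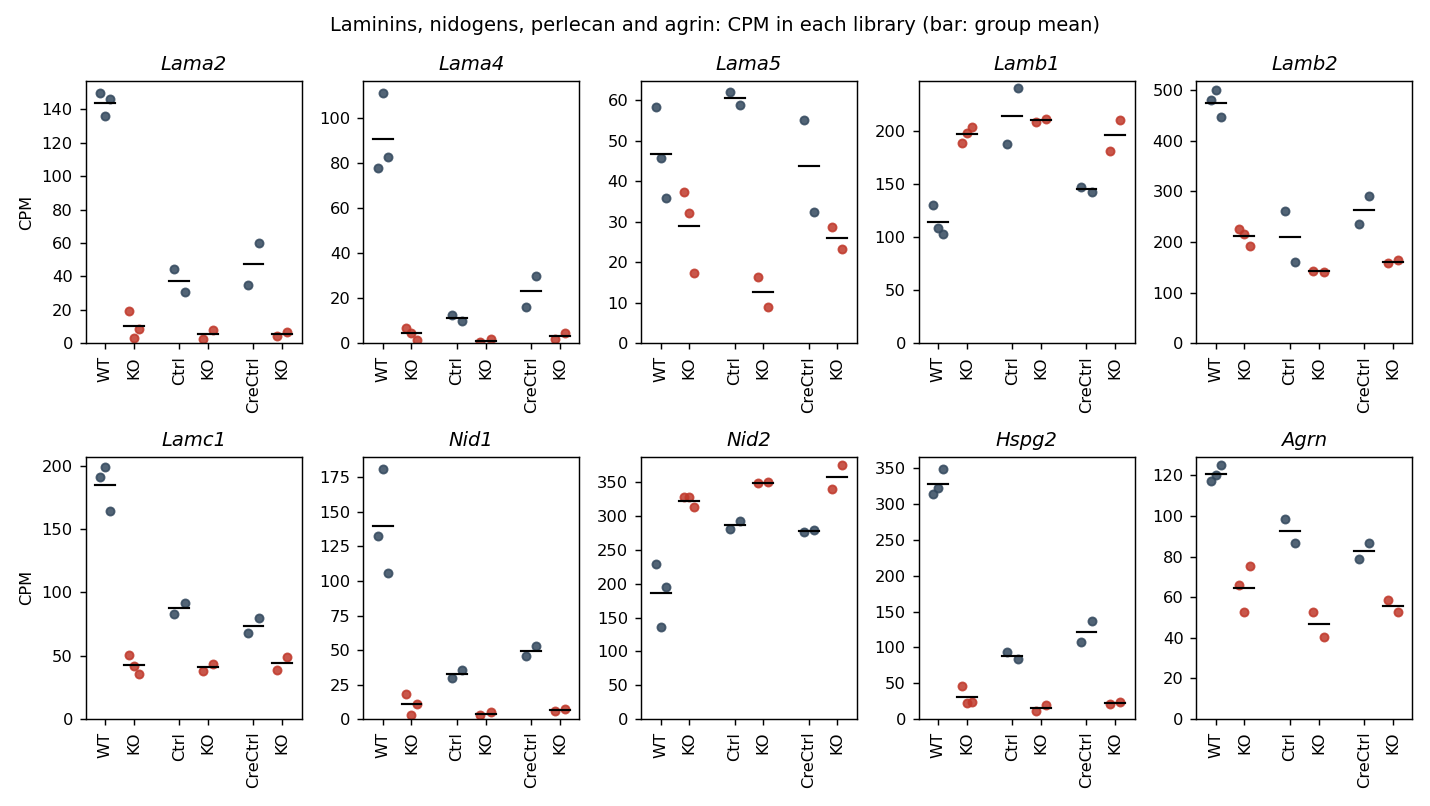
CPM of each gene in each of the 14 libraries (linear y axes from 0), with WT, Ctrl and CreCtrl libraries in blue, KO libraries in red and a bar at the group mean. For Lama2, the 7 KO libraries lie at 2.66 to 19.3 CPM, below all control libraries, and for Nid2 they lie at 313 to 375 CPM, above all control libraries.

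The β chains differed in direction. Lamb1, the β1 chain found in most basement membranes, had 130.2, 109 and 102 CPM in WT and 189, 198 and 204 CPM in KO libraries. The groups are apart, and Lamb1 rose by 0.67 on the log2 scale (SE 0.12, edgeR adjusted p = 0.00340). Ctrl values were 187 and 239.8 CPM and those of their KO libraries 208 and 211 CPM, inside the range of the controls (log2 fold change -0.03, SE 0.23, edgeR adjusted p = 0.988). CreCtrl values were 147 and 143 CPM and those of their KO libraries 181 and 209.8 CPM (log2 fold change 0.42, SE 0.17, edgeR adjusted p = 0.111). The 7 KO libraries were thus close to each other, at 181 to 211 CPM, while the controls spread from 102 to 239.8 CPM. Without Ctrl replicate 2 the log2 fold change in the Ctrl set was 0.16.

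Lamb2, the β2 chain, was lower in KO. It had 480.2, 499.5 and 446 CPM in WT and 225, 216 and 192 CPM in KO libraries, with no overlap. It fell by 1.29 on the log2 scale (SE 0.12, edgeR adjusted p = 1.01e-04). In the Ctrl set, 261 and 160.3 CPM stood against 143 and 141 CPM (log2 fold change -0.57, SE 0.30, edgeR adjusted p = 0.592). The Ctrl libraries differ from each other by more than the lower of them differs from the KO libraries. In the CreCtrl set, 235 and 291 CPM stood against 158 and 165 CPM, a log2 fold change of -0.72 (SE 0.18, edgeR adjusted p = 0.0400), and this call was lost without CreCtrl replicate 2 or either KO replicate.

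Lamc1, the γ1 chain shared by most laminin trimers, had 191, 199 and 164 CPM in WT and 50.3, 41.7 and 35.6 CPM in KO libraries. It fell by 2.24 on the log2 scale (SE 0.15, edgeR adjusted p = 3.83e-05). The Ctrl libraries had 83.1 and 91.9 CPM against 37.9 and 43.8 CPM in KO (log2 fold change -1.10, SE 0.22, edgeR adjusted p = 0.121). The groups do not overlap in any set. The CreCtrl libraries had 67.8 and 79.8 CPM against 38.8 and 49.3 CPM (log2 fold change -0.76, SE 0.18, edgeR adjusted p = 0.0386). This last call was lost without CreCtrl replicate 2 (-0.67) or KO replicate 1 of the set (-0.55).

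The nidogens differed in direction too. Nid1 had 132, 181 and 106 CPM in WT and 18.4, 3.08 and 10.9 CPM in KO libraries, and fell by 3.81 on the log2 scale (SE 0.54, edgeR adjusted p = 8.31e-04). In the Ctrl set, 29.9 and 35.3 CPM stood against 2.72 and 5.29 CPM (log2 fold change -3.02, SE 0.42, edgeR adjusted p = 0.106). KO values were low in every set. In the CreCtrl set, 45.6 and 52.9 CPM stood against 5.88 and 7.43 CPM (log2 fold change -2.90, SE 0.21, edgeR adjusted p = 0.00247).

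Nid2, the other nidogen, had 229, 136 and 195 CPM in WT and 327, 328 and 313 CPM in KO libraries. It rose by 0.67 on the log2 scale (SE 0.18, edgeR adjusted p = 0.0214), and this call was lost without WT replicate 2, when the value was 0.48. Ctrl values were 281 and 293 CPM against 349 and 349.7 CPM in KO (log2 fold change 0.28, SE 0.22, edgeR adjusted p = 0.781). KO libraries were above controls in every set, by little in the Ctrl set. CreCtrl values were 277 and 279.7 CPM against 339 and 375 CPM (log2 fold change 0.35, SE 0.17, edgeR adjusted p = 0.177). Rtraf, whose exons overlap those of Nid2, had log2 fold changes of 0.57, 0.17 and 0.38 in the WT, Ctrl and CreCtrl set, none called. For Lamb1 and Nid2, scaling by library size alone gave 0.42 each in KO vs. WT, neither called, with the median of all genes at -0.32 under that scaling. The median log2 fold change of the 10 RPE markers was 1.73, 0.58 and 0.66 in the 3 sets, with 10, 0 and 1 called higher, and the part of the RPE share of the RNA in the values of Lamb1 and Nid2 was not tested.

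Of the proteoglycans, perlecan differed more than agrin. Hspg2 had 314, 322 and 349 CPM in WT and 46.6, 23.1 and 23.7 CPM in KO libraries, and fell by 3.52 on the log2 scale (SE 0.28, edgeR adjusted p = 6.03e-05). The Ctrl libraries had 93.1 and 83.6 CPM against 11.8 and 19.6 CPM in KO (log2 fold change -2.49, SE 0.32, edgeR adjusted p = 0.106). The distance between groups exceeds the spread within them in each set. The CreCtrl libraries had 107 and 137 CPM against 20.9 and 24.2 CPM (log2 fold change -2.45, SE 0.19, edgeR adjusted p = 0.00247). Fibroblast markers moved with Hspg2, Nid1 and Lama2: all 10 were called lower in KO vs. WT and in KO vs. CreCtrl, 0 were called in KO vs. Ctrl, and the median log2 fold changes were -4.32, -3.37 and -2.94. The part of fibroblasts in these differences was not tested.

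Agrn had 117, 120.3 and 125 CPM in WT and 66.0, 52.5 and 75.4 CPM in KO libraries, and fell by 1.02 on the log2 scale (SE 0.16, edgeR adjusted p = 0.00125). The Ctrl libraries had 98.7 and 86.6 CPM against 52.9 and 40.5 CPM (log2 fold change -0.99, SE 0.24, edgeR adjusted p = 0.156). All 7 KO libraries, at 40.5 to 75.4 CPM, were below all 7 controls, at 78.7 to 125 CPM. The CreCtrl libraries had 78.7 and 86.9 CPM against 58.4 and 52.8 CPM (log2 fold change -0.59, SE 0.14, edgeR adjusted p = 0.0384). That last value sits at the fold threshold, and the call was lost with DESeq2 (-0.56) and without CreCtrl replicate 2 or either KO replicate.

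The KO effects were compared between sets in a fit of all 14 libraries. Lamc1 fell by more in the WT set than in the Ctrl set (difference of log2 fold changes -0.997, SE 0.25, edgeR adjusted p = 0.0396) and than in the CreCtrl set (-1.38, SE 0.25, edgeR adjusted p = 0.0246). The log2 fold change of Lamb1 was higher in the WT set than in the Ctrl set (difference 0.84, SE 0.21, edgeR adjusted p = 0.0412). In the Ctrl set fitted alone it was -0.03. The call on this difference was lost with RLE normalization, with library size alone and with a stricter count filter. These 3 calls, on 2 genes, were among 5.15% of 17662 genes called between the WT and Ctrl sets and 1.49% between the WT and CreCtrl sets. Between the CreCtrl and Ctrl sets none of the 10 genes was called by edgeR, as 0% of all genes, and 1545 of the 17662 genes had an unadjusted p under 0.05, with 883 called when every gene of at least 1 count was kept. The controls, not the KO libraries, hold most of this spread for Lamc1: WT had 164 to 199 CPM, the other controls 67.8 to 91.9 CPM, and all KO libraries 35.6 to 50.3 CPM.

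Shares of related chains within a library need no scaling between libraries. Per exon length, Lama5 made up 24.7, 18.7 and 16.6% of the Lama2, Lama4 and Lama5 reads in WT and 65.0, 82.3 and 69.4% in KO libraries. The Ctrl libraries had 59.1 and 65.6% and their KO libraries 86.4 and 55.1%, which overlap. The CreCtrl libraries had 58.0 and 31.6% and their KO libraries 85.1 and 72.1%. The share of Lama5 was thus larger in KO in the WT and CreCtrl sets, though its own level was not higher in any KO group. Lamb1 made up 12.8 ± 1.30% (SD, n = 3) of the β chain reads in WT and 36.5 ± 2.73% (SD, n = 3) in KO libraries. In the Ctrl set the shares were 30.6 and 47.8% against 47.1 and 47.9%, and in the CreCtrl set 27.8 and 23.1% against 41.4 and 43.8%.

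For nidogens and proteoglycans the shares did not overlap across the 14 libraries. Nid2 made up 50.2 to 92.7% of the nidogen reads in control and 96.0 to 99.4% in KO libraries. Agrn made up 35.5 to 62.0% of the Agrn and Hspg2 reads in control and 68.6 to 87.3% in KO libraries. Within the sets the mean share of Agrn was 36.2 ± 0.55% (SD, n = 3) in WT against 76.5 ± 7.32% (SD, n = 3) in KO, 61.8 ± 0.40% (SD, n = 2) in Ctrl against 81.7 ± 7.97% (SD, n = 2), and 51.3 ± 2.49% (SD, n = 2) in CreCtrl against 79.1 ± 2.86% (SD, n = 2). No test was made of the shares, since the genes were chosen with results known.

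**Figure D3:**
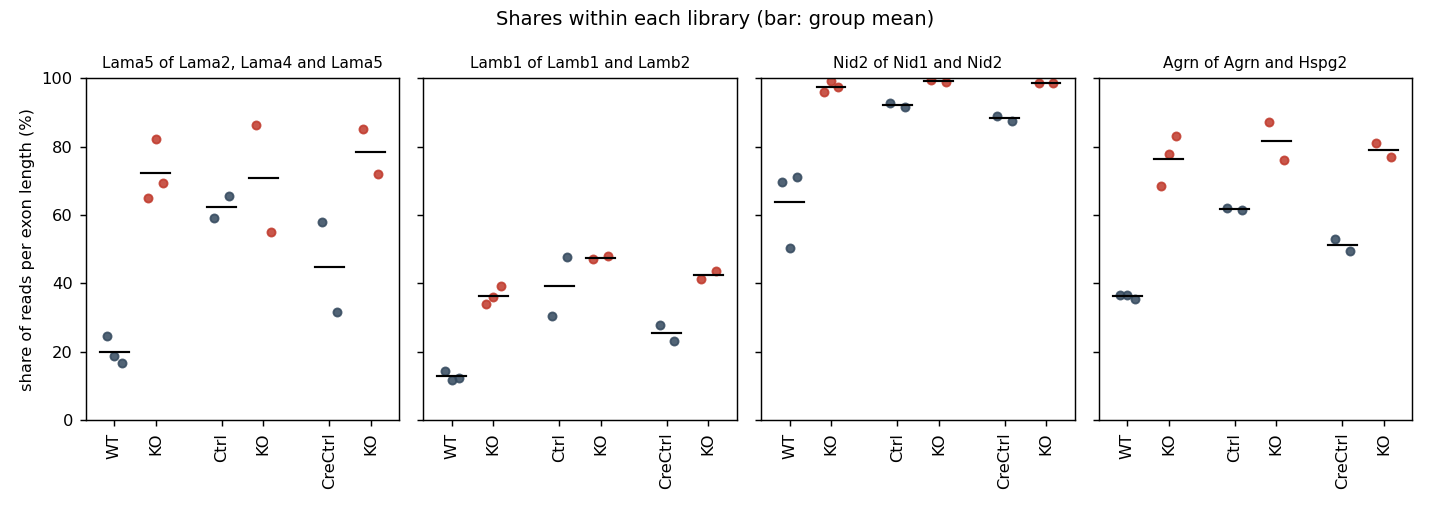
Share of reads per exon length (y axis, percent, from 0 to 100) of Lama5 among 3 α chains, Lamb1 among the β chains, Nid2 among the nidogens and Agrn among the proteoglycans, in each library (control blue, KO red, bar at the group mean). The Nid2 share is 96.0% or more in every KO library, and the Lama5 share of the KO libraries overlaps that of the Ctrl libraries.

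Levels can be ordered within a group as CPM per kilobase of exon. In WT, Lamb2 was the highest at 78.1 ± 4.49 (SD, n = 3), followed by Nid2 at 36.1 ± 9.04 (SD, n = 3). Hspg2, Lamc1 and Nid1 came next, each overlapping its neighbour, then Agrn and Lamb1, which overlap, then Lama2 and Lama4, which overlap, and Lama5 last. In the other 5 groups Nid2 was the highest, Lamb2 came next and Lamb1 followed. In Ctrl the levels per kilobase were 55.5 for Nid2, 34.6 for Lamb2 and 21.5 for Lamb1, and in CreCtrl 53.8, 43.2 and 14.6. In the KO groups of the WT, Ctrl and CreCtrl set, Nid2 had 62.3, 67.5 and 69.1 CPM per kilobase, Lamb2 34.7, 23.3 and 26.6, and Lamb1 19.8, 21.1 and 19.7. Agrn and Lamc1, which overlap, followed in each KO group, and Lama2 and Lama4 were the lowest. In Ctrl, Lamc1 and Agrn were the neighbours that overlapped, and in CreCtrl the overlapping runs were Lamc1, Agrn, Hspg2 and Nid1, and Lama5, Lama2 and Lama4. The order of the KO groups was thus alike, and by their means Lama2 and Lama4 were also the lowest in Ctrl and CreCtrl. Only WT had Lama5 at its end and Lama2 and Lama4 above it.

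**Figure D4:**
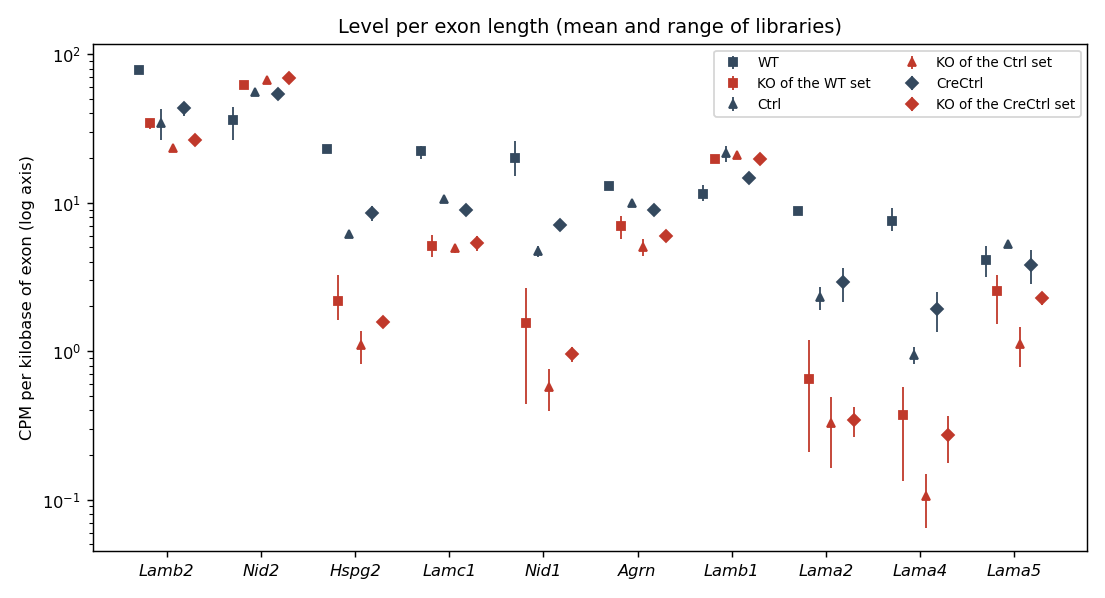
Level of each gene per kilobase of exon in the 6 groups (log y axis, CPM per kilobase), as the group mean with a line over the range of its libraries. Control groups are blue, KO groups red, and the marker shape gives the set. Nid2 is the highest gene in all groups but WT, where Lamb2 leads at 78.1.

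Other genes of the basement membrane were counted by list. The shares of all genes to read these counts against are 17.6% called lower and 14.1% higher in KO vs. WT, and 12.2% lower and 3.46% higher in KO vs. CreCtrl. Of the other laminin chains, Lamc3 was the 1 called in KO vs. WT, falling by 3.13 on the log2 scale (SE 0.60, edgeR adjusted p = 0.00388), and again in KO vs. CreCtrl (-3.14). Lama1 had log2 fold changes of -2.79 and -1.64 in the WT and Ctrl set, not called. It had few reads: in the WT set 32, 17 and 42 in WT and 6, 0 and 10 in KO libraries. Lama3 and Lamb3, laminin chains of stratified epithelia, stood at 0.58 and 0.82 on the log2 scale in the WT set and at -5.35 and -2.89 in the Ctrl set, not called. Their highest levels were in Ctrl replicate 2, at 70.9 and 24.2 CPM. That library also had 3932 CPM of Krt12, a keratin of the corneal epithelium, against 252 CPM in Ctrl replicate 1 and at most 6.01 CPM elsewhere. A list of 7 surface epithelium genes, made after these values were seen, summed to 2027 and 11224 CPM in the Ctrl libraries and 0.446 to 1035 CPM in the others. Its part in the Ctrl set's values, Lama5 and Lamb1 included, was not tested.

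Of the collagens IV, XV and XVIII, 3 of 8 were called lower and 3 higher in KO vs. WT. The ubiquitous type IV chains Col4a1 and Col4a2 fell by 3.22 and 2.49 on the log2 scale, and Col15a1, a collagen of vascular and muscle basement membranes, fell by 2.39. Col4a3 (1.05), Col4a4 (0.74) and Col18a1 (1.01), the source of endostatin, rose. Col4a5 (0.29) and Col4a6 (-0.55) were not called. In KO vs. CreCtrl the same 3 were lower, with log2 fold changes of -2.31, -1.57 and -2.15, and none was called higher. In KO vs. Ctrl edgeR called 0 of 8, with 3 at an unadjusted p under 0.05.

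Of 16 other basement membrane proteins tested, 9 were called lower and 1 higher in KO vs. WT, against 17.6% and 14.1% of all genes tested, with a median log2 fold change of -1.81. The largest falls were those of Smoc2, a matricellular calcium-binding protein (-5.37), and Ntn1, the guidance molecule netrin-1 (-4.55), and Frem1 was the gene that rose (0.83). Of 14 receptors, 4 were lower and 2 higher: Itgb4 (-2.84) and Itgb1 (-1.37), integrin β subunits, fell most, and Itga7, a laminin-binding integrin (1.30), and the syndecan Sdc2 (0.76) rose. The 2 receptors called higher are close to the 14.1% of all genes called higher. Of 16 genes of heparan sulfate synthesis, 6 were lower and 1 higher, with Hs6st2 at -5.11, the polymerase gene Ext1 at -1.82 and the sulfatase Sulf1 at 1.06. The value of Hs6st2 rests on few reads: 32, 68 and 45 in WT and 4, 1 and 0 in KO libraries. In KO vs. CreCtrl the calls were 7 lower and 1 higher, 1 lower and 1 higher, and 1 lower and 2 higher for these 3 lists in turn, against 12.2% lower and 3.46% higher of all genes tested. In KO vs. Ctrl, edgeR called 0 of all 3, with 8, 6 and 1 at an unadjusted p under 0.05, against 12.1% of all genes tested. The 1 of 16 heparan sulfate genes is below that share.

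Further marker lists were counted, to be read against 17.6% of all genes called lower and 14.1% higher in KO vs. WT, and 12.2% lower and 3.46% higher in KO vs. CreCtrl. Of the 6 Schwann cell markers tested in KO vs. WT, 2 were called lower and 1 higher, the latter near the share of all genes, and their list summed to 868 to 1186 CPM in KO and 636 to 1315 CPM in control libraries. Skeletal muscle markers summed to 1.44 to 20.95 CPM, with none at 1 CPM or more in every library. Pericyte and smooth muscle markers were called lower for 6 of 10 in KO vs. WT and in KO vs. CreCtrl and for 0 in KO vs. Ctrl. With 0 called higher, 2, 2 and 3 of the 10 had positive log2 fold changes in the WT, Ctrl and CreCtrl set. Myeloid markers were called lower for 7 of 8 in KO vs. WT and 6 in KO vs. CreCtrl, and 0 in KO vs. Ctrl. In each of the first 2 comparisons, 1 myeloid marker had every KO library above every control, without a call. Of all genes tested, 28.1% in KO vs. WT and 36.2% in KO vs. CreCtrl did so, a larger share. In KO vs. Ctrl, 6 of the 8 had positive log2 fold changes (median 0.30). Rod markers were called higher for 1 of 6 in KO vs. WT and lower for 5 of 6 in KO vs. CreCtrl, with 0 in KO vs. Ctrl. Skeletal muscle had 1 marker called lower in KO vs. WT and in KO vs. CreCtrl. The surface epithelium list had 0 called in each set. In KO vs. Ctrl, where edgeR called 0 markers, those at an unadjusted p under 0.05 were 8 fibroblast, 8 endothelial, 6 pericyte and smooth muscle, 2 Schwann cell, 1 rod, 1 skeletal muscle (of 2 tested) and 7 surface epithelium genes, and 0 of the RPE and myeloid lists, against 12.1% of all genes tested.

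**Figure D5:**
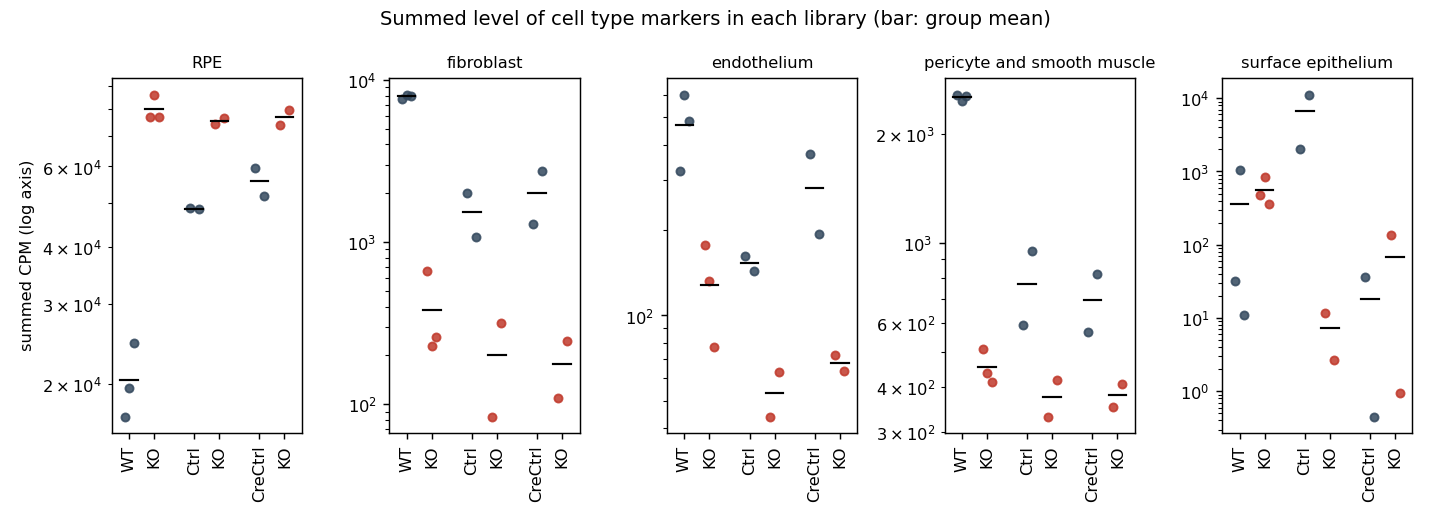
Summed CPM of 5 marker lists in each library (log y axes with a separate range per panel), control blue, KO red, bar at the group mean. Fibroblast markers are at 662 CPM or less in every KO library and at 1074 CPM or more in every control library, and surface epithelium genes are highest in the Ctrl libraries.

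The genes most like each of the 10 were found by Pearson r of log2 CPM, less the mean of the set, over the 14 libraries and 16181 genes. The points share libraries and the KO difference, so r is a description only. Lama2 was most like Cped1, Pdgfra and Rcn3 (r = 0.99 each), Lama4 like Foxp2, Tbc1d2b and Mrc2 (0.99 each) and Lama5 like Ptn, Nr2f1 (0.94 each) and Aldh1a3 (0.93). Lamb1 was most like Myo5b, Chchd3 and Ildr2 (0.98 each), Lamb2 like Col11a1, Farp1 and Prdx4 (0.99 each) and Lamc1 like Cavin1, Cgnl1 and Lima1 (0.99 each). Nid1 was most like Runx2, Mcm6 and Mill2 (0.99 each), Nid2 like Uqcc1, Rps6ka2 and Alg2 (0.97 each), Hspg2 like Gsn, Nav1 (1.00 each) and Plpp3 (0.99), and Agrn like Atp8a1, Trafd1 (0.97 each) and Dchs1 (0.96). Among the 10 themselves, Lamb1 and Nid2 had r = 0.87 with each other and negative r with the other 8, from -0.34 (Lamb1 with Lama5) to -0.90 (Lamb1 with Lamb2).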

How the data were processed

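RNAseq was done on RPE cells from 14 mice. The authors deposited raw read counts per Ensembl gene. The submitters' processing notes name bcl2fastq 2.19, STAR 2.5.2, HTSeq 0.11.2, Cufflinks 2.1.1 and GRCm38. The strand setting and annotation release are not given in the sources used here. Gene positions came from GENCODE M21, which held 42329 of 42687 genes. Titles differ in style between sets, which assigned KO libraries to a set. Every count column belonged to a library.

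Within each set, KO and control counts were compared by edgeR 4.0.16 (R 4.3.3, filterByExpr, TMM, quasi-likelihood test, Benjamini-Hochberg over all genes tested). Calls needed an adjusted p under 0.05 and a fold change above 1.5. That test gives no standard error, so each SE is the absolute log2 fold change divided by the square root of the F statistic. DESeq2 1.42.0, other scalings and count filters, a fit of all 14 libraries, a replicate block and leaving out each library were alternatives. Scripts were first tested on simulated data.

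The 10 genes and all lists were chosen with earlier results of these data known, and the surface epithelium list after its values were seen. Named are the 10 genes, all other laminin chains and collagens listed, the 2 largest calls per direction in KO vs. WT of each other list, and the 3 genes of highest r to each of the 10. Results for some of the listed genes, and for 1 list, are not reported here. Counts of a library (9828293 to 32384166) limit precision for the lowest genes. The likeness used log2 CPM with a prior count of 2.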

Additional observations from a re-analysis of the deposited data

Results flagged for a closer look

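Among the 7 KO libraries, the highest value lay far from the others for Lama2 (19.3 CPM) and for Hspg2 (46.6 CPM), in both cases in replicate 1 of the WT set. Chance flags about 1 in 20 such groups, and 10 genes and the shares were looked at. The KO effect differed between sets in edgeR's test for Lamb1 (WT set minus Ctrl set, 0.84 on the log2 scale) and for Lamc1 (WT set minus Ctrl set, -0.997, and WT set minus CreCtrl set, -1.38).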

How the results depend on the processing

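In KO vs. Ctrl, where edgeR called 0 of the 10 genes, DESeq2, the fit of all 14 libraries and keeping every gene with at least 1 count each called 7, and leaving out a library gave 0 to 2 (2 without Ctrl replicate 1). In KO vs. CreCtrl, with 7 called, the fit of all 14 libraries called 4 and leaving out a library gave 4 to 7 (4 without KO replicate 1). Of the 3 differences between sets, keeping every gene with at least 1 count made 8. Of the 27272 genes then tested, 2262 were called between the WT and Ctrl sets. Between the WT and CreCtrl sets 1102 were called, and between the CreCtrl and Ctrl sets 883. Lamb1 in KO vs. Ctrl ranged from -0.19 to 0.16 without a library, and turned positive (0.16) without Ctrl replicate 2. In KO vs. WT, leaving out a library gave 8 or 9 calls, and with all 14 libraries and set as a term every alternative called 8. Among all genes, leaving out a library in KO vs. WT called from 4230 of 16314 tested to 4640 of 16064. The alternatives with set as a term called from 3123 of 11824 genes tested to 5088 of 27272. The causes were not tested. Over all genes, KO vs. Ctrl gave 0 calls, against 1658 with every gene of at least 1 count, 1168 with DESeq2, 647 with all 14 libraries, 113 with the replicate block and up to 512 without a library. KO vs. CreCtrl gave 2498, against 4287 with every gene of at least 1 count, 703 with all 14 libraries, 3762 with the replicate block and 1147 to 4819 without a library. Same-numbered KO and control libraries did not deviate together in every pair (r from -0.02 to 0.18), so the numbers were not taken as pairs. The replicate block called 10, 0 and 8 of the 10 genes in the WT, Ctrl and CreCtrl set and 8 over all. Among all genes it called 4583 of 16578 tested in the WT set and 4121 of 17662 over the 14 libraries.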
